A study of Homo sapiens and Mus musculus with 41 samples.

Results

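Interferon-stimulated genes are the genes that a cell switches on when interferon, a cytokine of the antiviral response, binds its receptors. The set described here holds 47 of them, chosen by symbol, without regard to case, from a list written for this work; no value entered the rule, but the list was written with earlier results of these data known. All 47 were found in each of the 3 human tables of 23368 genes, and 38 of the 47 symbols were found in the mouse table of 23337 genes. IFIT5, IFI6, IFI27, IFI44L, OAS1, OASL, HERC5, SAMD9 and TRIM22 were not matched by symbol in mouse and were not analysed there. A filter on low values left 47 members to test in HCC1954, 45 in MDA-MB-231, 42 in PC9 and 31 in LLC.

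The 41 RNA-seq libraries came from cultured cells of 4 tumour models, all carrying GFP: HCC1954, a human breast ductal carcinoma line with elevated HER2, MDA-MB-231, a human breast ductal carcinoma line without oestrogen receptor, progesterone receptor or HER2, PC9, a human lung adenocarcinoma line with elevated EGFR, and LLC, the Lewis lung carcinoma line from a C57/B6 mouse. Each model had 4 stages: Lep, the leptomeningeal metastatic derivative, Int, an intermediate stage derivative, BrM, a brain metastatic derivative, and Par, the parental line. HCC1954 had 3 Lep, 2 Int, 2 BrM and 3 Par libraries, MDA-MB-231 and PC9 each had 2 Lep, 2 Int, 3 BrM and 3 Par libraries, and LLC had 3 Lep, 2 Int, 3 BrM and 3 Par libraries. Tumour cells were washed out of the leptomeningeal space of mice, grown on plastic until the culture was uniformly GFP-positive and passaged before RNA was taken, according to the labels, so that the libraries hold cultured cells and not tissue. How the BrM cells were obtained is not given in the labels, and the strain of the host mice is not given either. The Par libraries are technical replicates per the series' design, while Int and Lep mix biological and technical ones, so the p-values below measure the spread between these libraries only. In such bulk libraries, fewer cells of a type and less RNA per cell cannot be told apart.

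As background, type I and type III interferons signal through the kinases JAK1 and TYK2 to a complex with STAT2 and IRF9 that binds the interferon-stimulated response element (ISRE), while interferon gamma signals through JAK1 and JAK2 to factors that bind the GAS element. Their targets include cytosolic RNA sensors, IFIT and OAS proteins that act on viral RNA, the ubiquitin-like modifier ISG15 with its enzymes, the dynamin-like MX and GBP GTPases, membrane proteins that block viral entry or release, and the chemokines CXCL10 and CXCL11. Many of these genes are also transcribed at a low level without infection, through tonic interferon signalling, unphosphorylated STATs or IRF1.

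RefSeq promoter windows of 300 bases (250 before the annotated start and 50 from it on, build GRCh38.p14) were at hand for 37 of the 47 human members. The ISRE core GAAANNGAAA, searched on both strands with overlapping matches counted, was found in 23 of the 37 windows, or 62.2%, against 1255 of the 35116 windows in the table, or 3.57%. The GAS motif TTCNNNGAA, which reads the same on both strands and can overlap an ISRE match, was found in 10 of the 37 member windows, or 27%, against 7.66% of all windows. A match describes these letters only and is not a measured binding site. The 6 windows below belong to members whose values differ in direction between models or move by large amounts in the results that follow. All 6 hold an ISRE core. Other members also meet that description and are not printed. Among them, IFI35, XAF1, RSAD2, SAMD9L and CMPK2 have windows without a core, and IFITM1 and EPSTI1 have windows with one. A core in all 6 therefore follows from the choice of windows. The 6 printed are IFI27 (chr14:94110486-94110785, plus strand), IFIT1 (chr10:89392373-89392672, plus strand), CXCL10 (chr4:76023448-76023747, minus strand), MX1 (chr21:41420308-41420607, plus strand), BST2 (chr19:17405581-17405880, minus strand) and LGALS9 (chr17:27630938-27631237, plus strand), each written 5′ to 3′ on the strand of its gene. Capitals mark the ISRE core on either strand (where it lies on the other strand, its reverse complement). Within this set, IFI27 and IFIT1 each carry a pair of separate cores, BST2 a pair that overlap, and the other windows a single core. IFI27, IFIT1 and CXCL10 were called lower in HCC1954 Lep and higher in PC9 Lep than in Par, and LGALS9 was called higher in both. MX1 was called against Par in HCC1954 alone of these 2 models and BST2 in PC9 alone.
IFI27: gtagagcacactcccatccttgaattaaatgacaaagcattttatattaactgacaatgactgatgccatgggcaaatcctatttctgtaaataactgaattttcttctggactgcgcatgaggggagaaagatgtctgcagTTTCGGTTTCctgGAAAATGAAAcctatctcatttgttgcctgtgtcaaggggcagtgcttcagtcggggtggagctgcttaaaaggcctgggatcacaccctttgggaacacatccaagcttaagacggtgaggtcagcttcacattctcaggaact
IFIT1: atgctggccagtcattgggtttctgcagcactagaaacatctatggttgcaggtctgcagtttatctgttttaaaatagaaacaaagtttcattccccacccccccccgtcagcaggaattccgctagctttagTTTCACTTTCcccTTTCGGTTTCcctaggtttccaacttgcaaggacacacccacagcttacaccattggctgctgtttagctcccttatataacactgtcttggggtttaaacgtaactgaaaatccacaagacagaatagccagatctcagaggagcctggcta
CXCL10: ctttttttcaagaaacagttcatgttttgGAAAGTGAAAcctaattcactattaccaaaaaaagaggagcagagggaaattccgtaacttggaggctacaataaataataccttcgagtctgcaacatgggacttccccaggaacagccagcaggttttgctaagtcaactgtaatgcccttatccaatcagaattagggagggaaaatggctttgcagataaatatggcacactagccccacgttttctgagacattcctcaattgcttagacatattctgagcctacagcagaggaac
MX1: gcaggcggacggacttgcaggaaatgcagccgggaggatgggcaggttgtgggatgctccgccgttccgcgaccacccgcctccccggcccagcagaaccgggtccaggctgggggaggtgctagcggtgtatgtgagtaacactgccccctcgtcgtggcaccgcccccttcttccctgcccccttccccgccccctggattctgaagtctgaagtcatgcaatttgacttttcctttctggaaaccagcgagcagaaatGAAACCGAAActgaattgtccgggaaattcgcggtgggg
BST2: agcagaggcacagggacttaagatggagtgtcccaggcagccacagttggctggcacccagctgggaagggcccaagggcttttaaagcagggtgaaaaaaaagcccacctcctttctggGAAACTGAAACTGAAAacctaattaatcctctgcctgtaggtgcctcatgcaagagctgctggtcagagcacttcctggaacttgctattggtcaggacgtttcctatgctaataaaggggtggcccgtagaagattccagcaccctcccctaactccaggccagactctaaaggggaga
LGALS9: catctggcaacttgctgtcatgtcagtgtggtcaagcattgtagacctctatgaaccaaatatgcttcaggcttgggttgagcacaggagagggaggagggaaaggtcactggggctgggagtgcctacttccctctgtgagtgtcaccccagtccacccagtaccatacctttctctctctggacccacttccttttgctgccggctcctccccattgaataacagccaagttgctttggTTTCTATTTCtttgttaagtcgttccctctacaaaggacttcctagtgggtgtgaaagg

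Values are normalized ones: each read count was divided by the size factor of its library. HCC1954 libraries held between 25330801 and 67367833 reads, PC9 libraries between 16792027 and 38432963, and LLC libraries between 18029707 and 67939274. MDA-MB-231 had the widest span, between 23508951 and 110830546. At those depths a count of 0 allows up to 3 reads, which is a normalized value of 1.31 to 6.55 depending on the library. The levels of different genes are not compared here, because the values are not divided by gene length. Each model was fitted on its own with limma on log2(value + 1). A gene counted as called, and as having risen or fallen, with a 2-fold or larger difference and a Benjamini-Hochberg adjusted p under 0.05. The fits held 15561 genes for HCC1954, 14475 for PC9, 13494 for LLC and 15106 for MDA-MB-231. A positive log2 fold change means a higher value in the group named first, and each is given with its standard error. The tables were normalized separately, so differences between models were not tested. EPCAM and KRT8 were present in every HCC1954 and PC9 library and VIM in every MDA-MB-231 library, and ERBB2, which encodes HER2, had 146037, 150579 and 144250.2 in Lep, 153327 and 152226 in Int, 394804 and 398639 in BrM, against 59595, 57748 and 57461 in Par in HCC1954. Markers in the same list moved between stages of HCC1954. There KRT8 had 15702, 15738 and 16729 in Lep, against 75087, 73819 and 73859 in Par. VIM, a mesenchymal marker, had 1842, 1535 and 1483 in Lep, against 150.3, 142 and 165 in Par. NKX2-1, a lung lineage factor, had 551, 607 and 495 in Lep, against 113, 116 and 119.9 in Par in this breast line. KRT8 was thus called lower and VIM and NKX2-1 higher in Lep, and the part of these shifts in the members' values was not tested. In LLC, Epcam stayed under 10 in every library, while Krt18 and Vim were high, and NKX2-1 stayed under 10 in every PC9 library. EGFR had 1527 and 1928 in Lep, 1867 and 1595 in Int, 15117, 12762 and 11716 in BrM, against 9147, 9409.7 and 9752 in Par in PC9, so that the Lep and Int libraries lay far below Par in the gene that its label names.

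The members were called in Lep cells in different directions in different models. In HCC1954, 7 of 47 were called higher and 12 lower in Lep than in Par, which is 14.9% and 25.5% of the members, against 13% and 13.8% of all genes tested. In PC9, 17 of 42 were called higher and 0 lower, or 40.5% on the higher side, against 6.65% of all genes higher and 8.49% lower. In LLC, 5 of 31 were called higher and 3 lower, against 8% and 12.3% of all genes. In MDA-MB-231, limma called 0 of 45 members in either direction, against 0.0199% of all genes higher and 0.0463% lower; without adjustment p was under 0.05 for 10 members on the higher side and 4 on the lower, edgeR called 0 and DESeq2 called 7. The median log2 fold change over the members tested was -0.16 in HCC1954, 0.69 in PC9, -0.02 in LLC and 0.29 in MDA-MB-231, where the medians over all genes tested were -0.02, 0.02, 0.00 and -0.01.

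Int and BrM cells differed from Par in other patterns. In HCC1954 Int, 9 members were called higher and 6 lower, against 6.6% and 14.6% of all genes, with a member median of 0.54, and quantile normalization gave 14 higher and 5 lower. In HCC1954 BrM, 5 were called higher and 8 lower, against 9.63% and 14%, with a median of 0.08. In PC9 Int, 12 were called higher and 0 lower, against 6.24% and 7.71%, with a median of 0.66, whereas in PC9 BrM 2 were called higher and 6 lower, against 4.62% and 3.1%, with a median of -0.06 and with 1 call left when 10 in place of 1 was added to each value. LLC BrM had the lowest member median of the comparisons with Par, -0.74: 2 members were called higher and 13 of 31 lower, or 41.9% of the members lower, against 8.14% and 15.1% of all genes. Quantile normalization left 2 higher and 7 lower there. In LLC Int, 5 were called higher and 1 lower, against 6.4% and 5.08%, and that count changed with 1 library: it was 3 in all without Int replicate 1, where the lone Int library is likewise assumed to vary like the other groups. In MDA-MB-231 Int, 4 were called higher and 0 lower, against 4.33% and 2.61%, and the count was 16 without Par replicate 1 and 1 or 2 without Par replicate 2 or 3. Without either Int library it was 0, a fit in which Int is 1 library that is assumed to vary like the other groups. In MDA-MB-231 BrM, limma called 0 members, against 0.344% of genes higher and 0.106% lower, with unadjusted p under 0.05 for 4 members on the higher side and 2 on the lower, 0 called by edgeR and 1 by DESeq2.

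Between derivatives, HCC1954 Lep had 2 members higher and 11 lower than Int, against 11.7% and 3.47% of all genes, and 5 higher and 8 lower than BrM, against 10.5% and 6.54%. PC9 Lep had 2 members higher and 0 lower than Int, against 0.228% and 0.38%, and 17 higher and 0 lower than BrM, against 7.83% and 10.8%. The 2 PC9 members above Int were IFI27 and IFI44; 1 was left without Int replicate 1 and 0 without Int replicate 2. LLC Lep had 1 member higher and 7 lower than Int, against 8.47% and 14%, with 4 called without Int replicate 1, and 13 higher and 3 lower than BrM, against 11.1% and 6.85%. MDA-MB-231 Lep had 1 member higher and 1 lower than BrM, against 0.344% and 0.483%, and limma called 0 against Int, where 0.0265% of genes were higher and 0.132% lower, 8 higher and 7 lower members had an unadjusted p under 0.05, edgeR called 0 and DESeq2 4. The MDA-MB-231 count against BrM was 0 without BrM replicate 1 or 3 and 1 without BrM replicate 2, and the count against Int was 5 without Lep replicate 1. Comparisons that use the same Par or Lep libraries are not independent of each other.

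**Figure D1:**
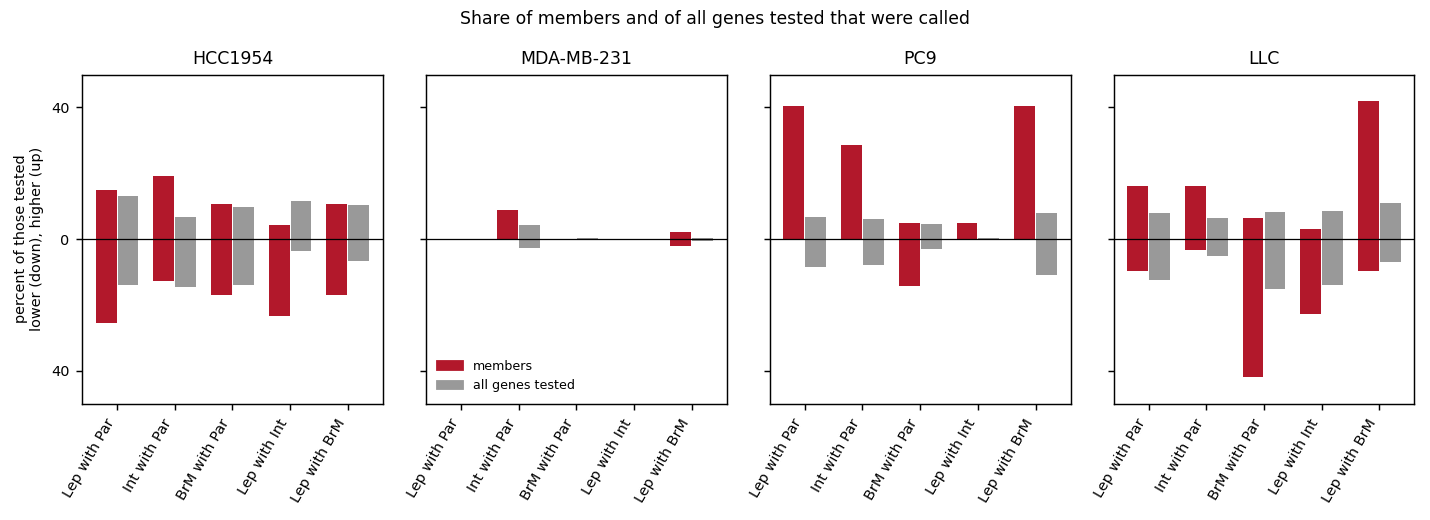
Percent of the members tested (red) and of all genes tested (grey) that were called higher (up) or lower (down) in each comparison, by model. In PC9 the member bars for Lep with Par and Lep with BrM both stand at 40.5% higher with 0 lower, and in LLC the member bar for BrM with Par stands at 41.9% lower.

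**Figure D2:**
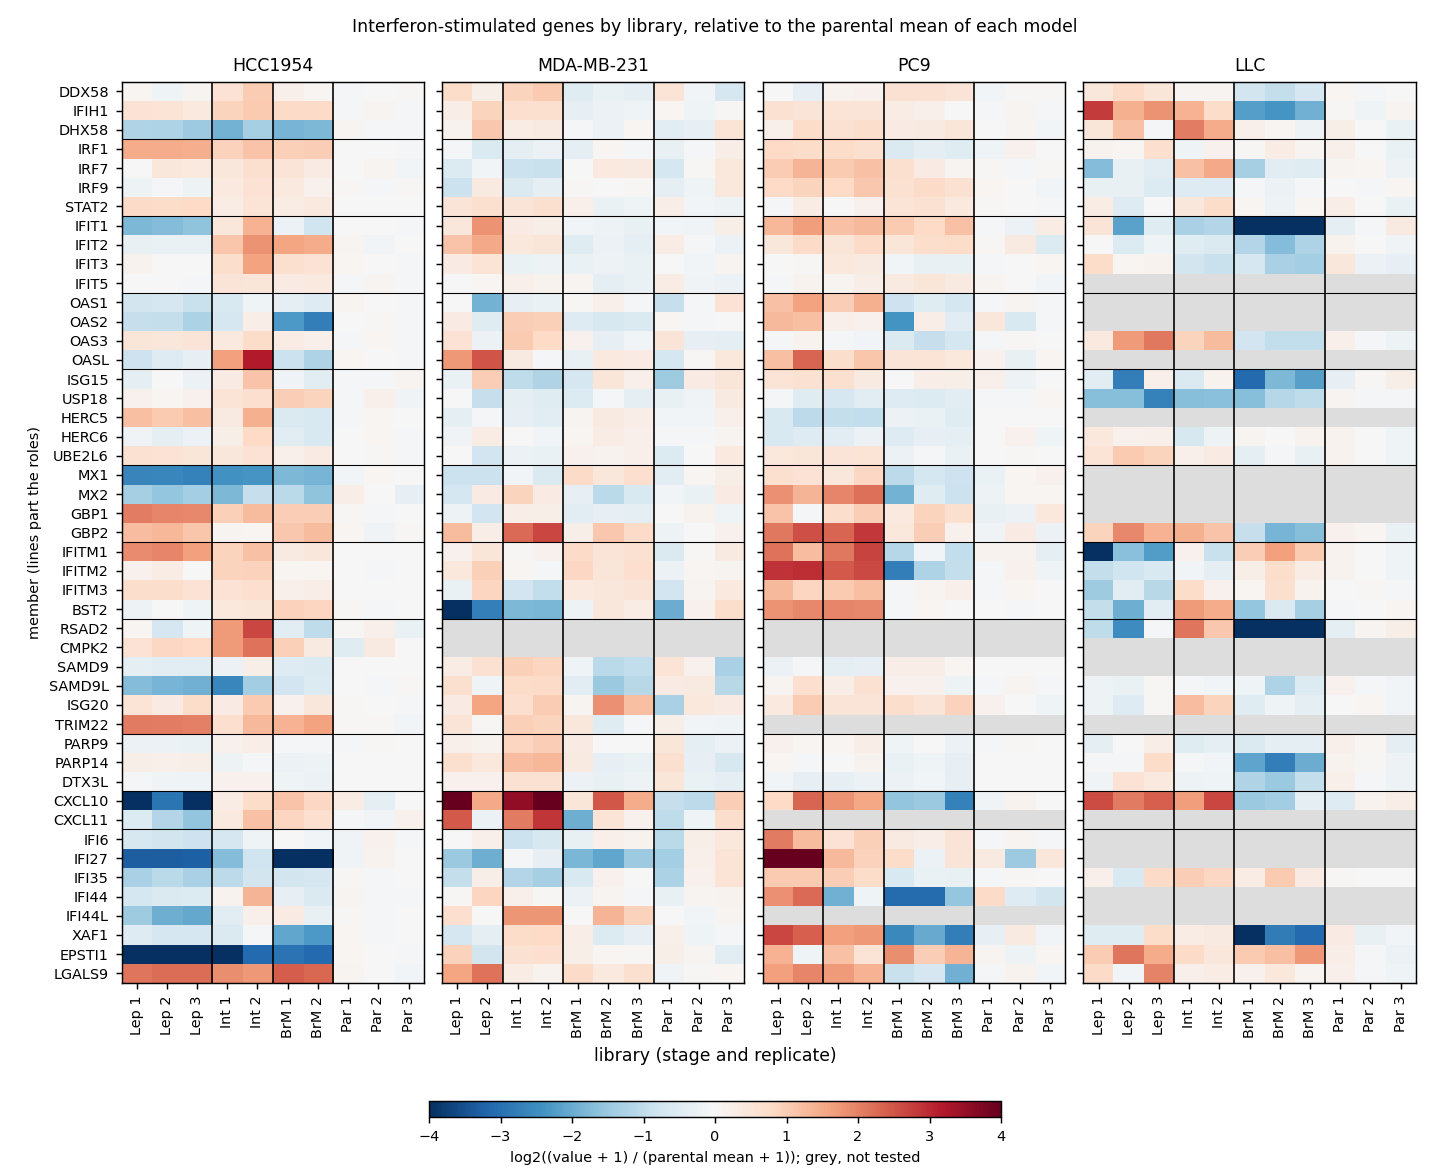
Log2 ratio of each member's normalized value plus 1 to the Par mean plus 1 in every library, with the stages Lep, Int, BrM and Par from left to right, roles parted by lines and colours held at 4 in either direction. HCC1954 Lep shows both blue rows (MX1, CXCL10, IFI27) and red rows (GBP1, IFITM1, TRIM22, LGALS9), PC9 Lep and Int show red rows, and LLC BrM shows blue rows.

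The spread between replicates differed by model and stage. In HCC1954 Int, replicate 2 was above replicate 1 in 44 of 47 members, with a median difference of 0.43 on the log2 scale, and 5 members differed by more than 2-fold. In MDA-MB-231 Par, replicates 1 and 3 differed by more than 2-fold in 16 of 45 members, and the 2 Lep libraries in 12 of 45. The LLC Lep libraries differed by more than 2-fold in 8 to 11 of 31 members, pair by pair. HCC1954 Lep and Par were tighter, with at most 1 member over 2-fold between any pair of Lep libraries.

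Among the 3 cytosolic RNA sensors, DHX58 (LGP2, a regulator of the other sensors) was lower in every HCC1954 derivative, and IFIH1 (MDA5, which senses long double-stranded RNA) moved in LLC. DHX58 had 152, 150.3 and 128 in Lep, 95.3 and 139.5 in Int, 95.8 and 101 in BrM, against 381, 344 and 337 in Par in HCC1954. All derivative libraries lay below all Par libraries, with log2 fold change -1.30 ± 0.13, adjusted p = 7.8e-07 in Lep. In LLC, Dhx58 was higher in Int, at 199.5 and 137 in Int, against 56.2, 47.8 and 39.2 in Par. For Dhx58, Int against Par gave log2 fold change 1.78 ± 0.35, adjusted p = 0.0035. Ifih1 had 112, 42.2 and 55.5 in Lep, 41.7 and 25.9 in Int, 2.54, 2.18 and 3.29 in BrM, against 15.6, 13.3 and 16.6 in Par in LLC. It was higher in Lep (log2 fold change 2.01 ± 0.39, adjusted p = 0.0013) and lower in BrM (log2 fold change -2.15 ± 0.39, adjusted p = 7e-04), and the Lep and BrM libraries stood far apart (log2 fold change 4.16 ± 0.39, adjusted p = 1.1e-05). DDX58 (RIG-I, which senses short uncapped RNA) was called in 1 of 20 tests over the models, where LLC Ddx58 had 1259, 1579.7 and 1293 in Lep, against 559, 472 and 583 in BrM. For Ddx58, Lep against BrM gave log2 fold change 1.35 ± 0.14, adjusted p = 1.8e-05. DDX58 had 837, 711 and 865 in Lep, 1189 and 1597 in Int, 905 and 836 in BrM, against 756, 811 and 816 in Par in HCC1954. In PC9 DDX58 had 242 and 194 in Lep, 269 and 278 in Int, 375, 373 and 351 in BrM, against 226, 255 and 257 in Par. It was called in neither model. In MDA-MB-231, DDX58 had 4992 and 3556 in Lep, 5608 and 6144 in Int, 2155, 2499 and 2277 in BrM, against 4347, 2755 and 1891 in Par, and the Int libraries lay above all others without passing the threshold (log2 fold change 1.05 ± 0.31, adjusted p = 0.056).

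Of the 4 transcription factors, IRF1 (an activator induced by interferon gamma) and IRF7 (the amplifier of type I interferon production) were called, and STAT2 and IRF9, members of the ISRE-binding complex, were called in none of 20 tests each. IRF1 had 4408, 4425 and 4303 in Lep, 2989.8 and 3499 in Int, 3079.9 and 3126 in BrM, against 1608, 1581 and 1535 in Par in HCC1954. The derivative libraries lay above the Par libraries in all 3 comparisons, called in Lep (log2 fold change 1.48 ± 0.05, adjusted p = 4.3e-12) and Int (log2 fold change 1.04 ± 0.05, adjusted p = 8.5e-10), with 0.98 ± 0.05 in BrM just under the fold threshold. In PC9, IRF1 had 775 and 736 in Lep, 748 and 702 in Int, 297, 343 and 319 in BrM, against 394, 507 and 439 in Par. IRF1 was called only between Lep and BrM (log2 fold change 1.24 ± 0.11, adjusted p = 4.9e-07). IRF7 had 165 and 209.8 in Lep, 168 and 184 in Int, 126, 101 and 86.7 in BrM, against 83.4, 75.7 and 82.4 in Par in PC9. IRF7 was higher in Lep (log2 fold change 1.20 ± 0.17, adjusted p = 4.4e-05) and Int (log2 fold change 1.12 ± 0.17, adjusted p = 8.1e-05). A correction for gene length and GC content, described with PC9 below, took IRF7 under the threshold in both. In LLC, Irf7 had 6.39, 19.2 and 17.6 in Lep, 54.3 and 69.8 in Int, 8.88, 17.5 and 16.5 in BrM, against 25.6, 25.2 and 20.2 in Par, and the Lep libraries lay below the Int libraries (log2 fold change -2.16 ± 0.47, adjusted p = 0.0026). IRF7 was not called in HCC1954, where it had 366, 510.3 and 481 in Lep, against 371, 396 and 340.0 in Par, or in MDA-MB-231, where it had 960.2 and 1319 in Lep, against 874, 1459 and 1908 in Par. IRF1 had 2247 and 1568 in Lep, against 1939.8, 2307 and 2843 in Par in MDA-MB-231, and Irf1 had 1139, 1094 and 1669 in Lep, against 1193, 1049 and 873 in Par in LLC, with no call in either. STAT2 had 3529.6, 3426 and 3600.3 in Lep, 2563 and 3015 in Int, 2552 and 2681 in BrM, against 2052, 2059.5 and 2081 in Par in HCC1954, the libraries of every derivative above those of Par but under the fold threshold (0.77 ± 0.05 in Lep). It had 614 and 792 in Lep, against 668, 656 and 629 in Par in PC9 and 3314 and 3579 in Lep, against 2761, 2162 and 2028 in Par in MDA-MB-231. Mouse Stat2 had 579, 335 and 478 in Lep, against 565, 469 and 391 in Par in LLC. IRF9 had 958, 1028 and 940.1 in Lep, against 1125, 1031 and 1124 in Par in HCC1954 and 461 and 491 in Lep, against 279.6, 269 and 242 in Par in PC9. In MDA-MB-231 IRF9 had 765 and 1802 in Lep, against 1052, 1242 and 1881 in Par. Mouse Irf9 had 299, 299 and 250.2 in Lep, against 366, 347 and 392 in Par in LLC. The STAT2 and IRF9 differences of Lep from Par stayed between -0.16 and 0.85 on the log2 scale in HCC1954 and PC9.

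The IFIT proteins bind viral RNA ends and block its translation. IFIT1 had 104, 108 and 118 in Lep, 501 and 964 in Int, 308 and 209.7 in BrM, against 371, 371 and 351 in Par in HCC1954. Lep lay below every other stage there (log2 fold change -1.72 ± 0.19, adjusted p = 1.7e-06 against Par), and Int replicate 2 was the highest library. In PC9, IFIT1 had 34.5 and 44.3 in Lep, 30.8 and 33.6 in Int, 28.2, 23.6 and 30.8 in BrM, against 12.3, 11 and 16.2 in Par. All 3 PC9 derivatives were called higher than Par, Lep with log2 fold change 1.52 ± 0.26, adjusted p = 2e-04, and the Lep fold change was 1.77 after the length and GC correction. In LLC, Ifit1 had 29.4, 3.83 and 14.1 in Lep, 7.67 and 8.44 in Int, 0, 0 and 0 in BrM, against 14.9, 19.3 and 26.2 in Par. All BrM libraries were at 0, so that Ifit1 was at least 3.95-fold lower in BrM than in Par when 3 reads per library are set as the floor. In MDA-MB-231, IFIT1 had 751 and 1908 in Lep, 683 and 643 in Int, 506, 475 and 447 in BrM, against 505, 489.9 and 642 in Par, and the Lep libraries were the highest without passing the threshold (log2 fold change 1.14 ± 0.34, adjusted p = 0.29).

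IFIT2 and IFIT3 rose in HCC1954 Int and were not called in Lep. IFIT2 had 386, 396 and 394 in Lep, 1019 and 1628 in Int, 1415 and 1317 in BrM, against 507, 435 and 477 in Par; it was higher in Int (log2 fold change 1.45 ± 0.14, adjusted p = 5.3e-07) and BrM (log2 fold change 1.53 ± 0.14, adjusted p = 2.6e-07). IFIT3 had 847, 773 and 766 in Lep, 1252 and 2356 in Int, 1205 and 1159 in BrM, against 805, 784 and 722 in Par in HCC1954. IFIT3 was higher in Int (log2 fold change 1.16 ± 0.17, adjusted p = 4.3e-05). Lep lay below Int for IFIT2 (log2 fold change -1.71 ± 0.14, adjusted p = 1.5e-07) and IFIT3 (log2 fold change -1.11 ± 0.17, adjusted p = 7.7e-05). In MDA-MB-231, IFIT2 was 1 of 2 members called between Lep and BrM, at 1489 and 1945 in Lep, against 480.4, 575 and 512 in BrM. For IFIT2, Lep against BrM gave log2 fold change 1.71 ± 0.21, adjusted p = 0.012. In LLC BrM, Ifit2 (709, 485 and 688 in BrM, against 1793, 1588 and 1461 in Par; log2 fold change -1.38 ± 0.18, adjusted p = 7.4e-05) and Ifit3 (14, 8.73 and 8.23 in BrM, against 31.3, 19.3 and 17.8 in Par; log2 fold change -1.07 ± 0.35, adjusted p = 0.022) were lower, so that all 3 Ifit members tested there were called lower. IFIT3 was not called in PC9, with 77.7 and 79.4 in Lep, against 73.6, 75.7 and 81 in Par, or in MDA-MB-231, with 2934 and 3385 in Lep, against 2326, 2132 and 2484 in Par. IFIT5 was tested in the 3 human models and called in none of 15 tests. Mouse Ifit3 has a near-identical copy, so how its reads were shared out is uncertain.

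The OAS proteins make oligoadenylate second messengers when they bind double-stranded RNA, and OASL is a relative that enhances RIG-I signalling. OAS2 had 599, 583 and 471 in Lep, 699.9 and 1343 in Int, 229 and 164 in BrM, against 1121, 1153 and 1099 in Par in HCC1954. Lep (log2 fold change -1.04 ± 0.19, adjusted p = 0.00017) and BrM (log2 fold change -2.53 ± 0.21, adjusted p = 1e-07) lay below Par, while 1 Int library lay below and 1 above. OASL had 90.3, 112 and 129 in Lep, 505 and 1473 in Int, 88 and 68.9 in BrM, against 171, 159 and 155 in Par in HCC1954, where both Int libraries stood above all others (log2 fold change 2.41 ± 0.32, adjusted p = 1.1e-05 against Par) but differed from each other more than 2-fold. Lep lay below Int (log2 fold change -2.97 ± 0.32, adjusted p = 2e-06). In PC9, OASL had 71.9 and 157 in Lep, 49.7 and 66.4 in Int, 43.5, 44.7 and 41.4 in BrM, against 34.3, 24.4 and 32.4 in Par and was higher in Lep (log2 fold change 1.79 ± 0.29, adjusted p = 0.00013). OAS1 was higher in both PC9 Lep (1.40 ± 0.17) and Int (1.21 ± 0.17). OAS2 was near the floor in PC9, at 11.7 and 10.9 in Lep, 5.03 and 4.92 in Int, 0, 5.25 and 2.89 in BrM, against 6.13, 2.44 and 4.05 in Par, and it was called between Lep and BrM (log2 fold change 2.08 ± 0.68, adjusted p = 0.015). In MDA-MB-231, OAS2 had 885 and 498 in Lep, 1371 and 1366 in Int, 493, 450.0 and 465 in BrM, against 736, 675 and 686 in Par with no call. OASL had 556 and 947 in Lep, 216 and 160.1 in Int, 135, 219 and 211 in BrM, against 102, 173 and 225 in Par in MDA-MB-231; both Lep libraries were above all others but did not pass the threshold (log2 fold change 2.19 ± 0.39, adjusted p = 0.082). In LLC, Oas3 had 52.4, 132 and 175 in Lep, 75.1 and 96.2 in Int, 22.8, 19.6 and 19.8 in BrM, against 46.2, 38.5 and 34.5 in Par. Oas3 was higher in Lep (log2 fold change 1.41 ± 0.38, adjusted p = 0.0087), and OAS3 was called in neither HCC1954 nor PC9. Oas2 was under the filter in LLC, at 2.85 or less in every library.

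ISG15 is a ubiquitin-like protein, UBE2L6 and HERC5 are its conjugating enzyme and ligase, HERC6 takes the ligase role in mouse, and USP18 removes ISG15 and restrains the type I receptor. ISG15 itself was called in 1 of 20 tests: Isg15 was lower in LLC BrM, at 3.81, 10.9 and 8.23 in BrM, against 32, 42.5 and 47.6 in Par. For Isg15, BrM against Par gave log2 fold change -2.35 ± 0.64, adjusted p = 0.0081. In HCC1954 ISG15 had 293, 384 and 326 in Lep, 480.3 and 852 in Int, 351 and 278 in BrM, against 369.7, 367 and 414 in Par. In PC9 ISG15 had 340.3 and 357 in Lep, 362 and 302 in Int, 235, 278 and 275 in BrM, against 266, 200.3 and 232 in Par. Lep and Par overlapped in HCC1954, and in PC9 the Lep libraries lay above Par by less than the threshold (0.59 ± 0.13). In MDA-MB-231, ISG15 had 2860.4 and 6755 in Lep, 1713 and 1481 in Int, 2145, 4794 and 3922 in BrM, against 1279, 4264 and 4753 in Par; 1 Par library was lower than the others and the groups overlapped. HERC5 was higher in HCC1954 Lep, at 958, 864 and 961 in Lep, 537 and 1127 in Int, 278 and 276 in BrM, against 398, 444 and 412 in Par. For HERC5, Lep against Par gave log2 fold change 1.15 ± 0.18, adjusted p = 5.7e-05. The Lep libraries stood above BrM as well (log2 fold change 1.74 ± 0.20, adjusted p = 5.2e-06). Usp18 was lower in every LLC derivative, at 28.1, 28.1 and 13.4 in Lep, 28 and 28.7 in Int, 27.9, 41.5 and 46.1 in BrM, against 100.3, 91 and 89.2 in Par. For Usp18, Lep against Par gave log2 fold change -2.04 ± 0.32, adjusted p = 0.00033. USP18 was not called in the human models, and reads of human USP18 may be shared with its near-identical copy USP41. HERC6 was called in none of 20 tests, and UBE2L6 in 1, between LLC Lep and BrM.

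The GTPases split within HCC1954. MX1, a cytoplasmic dynamin-like protein that traps viral nucleocapsids, had 51.6, 53 and 48.8 in Lep, 59.5 and 62.9 in Int, 91.9 and 89.7 in BrM, against 304, 340.1 and 331 in Par. Every derivative library lay below every Par library, with log2 fold change -2.64 ± 0.11, adjusted p = 6e-11 in Lep and log2 fold change -2.39 ± 0.12, adjusted p = 1e-09 in Int. MX2 followed with 14.1, 11.9 and 13.8 in Lep, 10.0 and 18.9 in Int, 16.8 and 11.5 in BrM, against 45, 36.7 and 29 in Par. MX2 was called lower in all 3. GBP1 and GBP2, guanylate-binding proteins induced by interferon gamma, went the other way: GBP1 had 4863, 4553 and 4428 in Lep, 2276 and 2826 in Int, 2339 and 2311 in BrM, against 1201, 1123 and 1196 in Par. For GBP1, Lep against Par gave log2 fold change 1.97 ± 0.06, adjusted p = 5.5e-12. GBP2 had 2091, 2234 and 1901 in Lep, 949.6 and 936 in Int, 1859 and 2134 in BrM, against 935, 808 and 905 in Par. For GBP2, Lep against Par gave log2 fold change 1.23 ± 0.07, adjusted p = 1.3e-09. For GBP2 the Int mean lay within 0.10 of the Par mean on the log2 scale, and the Lep and BrM libraries lay above all Int and Par libraries.

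GBP2 was also higher in PC9 and in MDA-MB-231 Int. In PC9 it had 561 and 782 in Lep, 657 and 927 in Int, 175, 257 and 146 in BrM, against 117, 162 and 111 in Par. GBP2 was higher in Lep (log2 fold change 2.36 ± 0.24, adjusted p = 2.6e-06) and Int (log2 fold change 2.60 ± 0.24, adjusted p = 1.2e-06), and 2.49 and 2.72 after the length and GC correction. In MDA-MB-231, GBP2 had 1136 and 569 in Lep, 2285 and 2986 in Int, 559.7, 997 and 802 in BrM, against 408, 472 and 537 in Par; both Int libraries stood above all others (log2 fold change 2.47 ± 0.33, adjusted p = 0.0075). In LLC, Gbp2 had 63.9, 132 and 91.4 in Lep, 94.3 and 76 in Int, 17.8, 8.73 and 9.88 in BrM, against 38.4, 35.8 and 28.5 in Par. Gbp2 was higher in Lep (log2 fold change 1.40 ± 0.34, adjusted p = 0.0049) and Int and lower in BrM (log2 fold change -1.48 ± 0.34, adjusted p = 0.0031). GBP2 was thus called higher against Par in at least 1 derivative of each model, and it had 11 calls in 20 tests, behind CXCL10 with 13. MX1 in PC9 had 208 and 196 in Lep, 181 and 235 in Int, 63.5, 81.4 and 73.2 in BrM, against 109, 139 and 147 in Par. MX1 was called between Lep and BrM (log2 fold change 1.47 ± 0.17, adjusted p = 6.7e-06), and MX2 had 43.3 and 30.9 in Lep, 47.2 and 56.5 in Int, 2.35, 7.88 and 5.78 in BrM, against 9.81, 12.2 and 12.2 in Par. MX2 was higher in Lep (log2 fold change 1.61 ± 0.39, adjusted p = 0.0028) and Int (log2 fold change 2.09 ± 0.39, adjusted p = 0.00041). MX1 in MDA-MB-231 had 131 and 132 in Lep, 222 and 158 in Int, 409.6, 324 and 381 in BrM, against 179, 254 and 281 in Par, and Lep lay below BrM (log2 fold change -1.48 ± 0.26, adjusted p = 0.042). Mx1, Mx2 and Gbp1 were under the filter in LLC, with no Mx1 value above 1.28.

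All 4 membrane restriction factors were called higher in PC9 Lep than in Par. BST2 (tetherin, which holds budding virions at the surface) had 2465 and 2704 in Lep, 2782 and 2721 in Int, 693, 757 and 726 in BrM, against 724, 695 and 731 in Par in PC9. Lep and Int were about alike and above BrM and Par. Against Par, BST2 had log2 fold change 1.85 ± 0.07, adjusted p = 2.8e-09 in Lep and log2 fold change 1.94 ± 0.07, adjusted p = 2.1e-09 in Int. IFITM1, IFITM2 and IFITM3 block the fusion of entering virions. In PC9, IFITM1 had 68.2 and 35.1 in Lep, 64.2 and 97.5 in Int, 5.88, 13.1 and 6.74 in BrM, against 15.9, 15.9 and 10.8 in Par (log2 fold change 1.74 ± 0.38, adjusted p = 0.0014). IFITM2 had 110.0 and 113 in Lep, 81.1 and 91.8 in Int, 1.18, 5.25 and 6.74 in BrM, against 13.5, 15.9 and 12.2 in Par. For IFITM2, Lep against Par gave log2 fold change 2.93 ± 0.43, adjusted p = 5.9e-05. IFITM3 had 4366 and 3236 in Lep, 3719.7 and 4071 in Int, 1689.9, 1915 and 2054 in BrM, against 1684, 1876 and 1783 in Par. For IFITM3, Lep against Par gave log2 fold change 1.08 ± 0.11, adjusted p = 3.5e-06. The 3 IFITM genes are near-identical neighbours, so how reads were shared among them is uncertain. IFITM3 fell under the threshold after the length and GC correction (0.44).

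In HCC1954, IFITM1 had 6435, 6737 and 5509 in Lep, 3239 and 3907 in Int, 2264 and 2414 in BrM, against 1741, 1763 and 1739 in Par. IFITM1 was higher in Lep (log2 fold change 1.83 ± 0.07, adjusted p = 3.7e-11) and Int (log2 fold change 1.02 ± 0.08, adjusted p = 7e-08). BST2 had 2304, 2646 and 2364 in Lep, 3551 and 3716 in Int, 5028 and 4849.6 in BrM, against 2761, 2598 and 2662 in Par in HCC1954; Lep overlapped Par and lay below BrM (log2 fold change -1.02 ± 0.05, adjusted p = 1.3e-09). In LLC, Ifitm1 had 57.5, 295 and 199 in Lep, 1075 and 512 in Int, 1869.5, 2930.0 and 1939 in BrM, against 1032, 959 and 844 in Par. Ifitm1 was lower in Lep (log2 fold change -2.64 ± 0.47, adjusted p = 0.00074) and higher in BrM (log2 fold change 1.22 ± 0.47, adjusted p = 0.044). Bst2 had 688, 343 and 992 in Lep, 4326 and 3771 in Int, 462, 889 and 532 in BrM, against 1287, 1319 and 1409 in Par in LLC. Bst2 was higher in Int (log2 fold change 1.59 ± 0.36, adjusted p = 0.0075) and lower in Lep (log2 fold change -1.12 ± 0.32, adjusted p = 0.013) and BrM (log2 fold change -1.15 ± 0.32, adjusted p = 0.0097). In MDA-MB-231, BST2 had 271 and 897 in Lep, 1720.3 and 1700.3 in Int, 5179, 8252 and 7467 in BrM, against 1529.7, 6830.2 and 9711 in Par. Both Lep libraries lay below all others, but Par replicate 1 lay near the Int libraries and far below the other Par libraries, and the difference did not pass the threshold (log2 fold change -3.24 ± 0.73, adjusted p = 0.16). IFITM1 had 1162 and 1462 in Lep, 1077 and 1174 in Int, 1765, 1490.1 and 1588 in BrM, against 695, 1074 and 1346 in Par in MDA-MB-231, with no call.

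**Figure D3:**
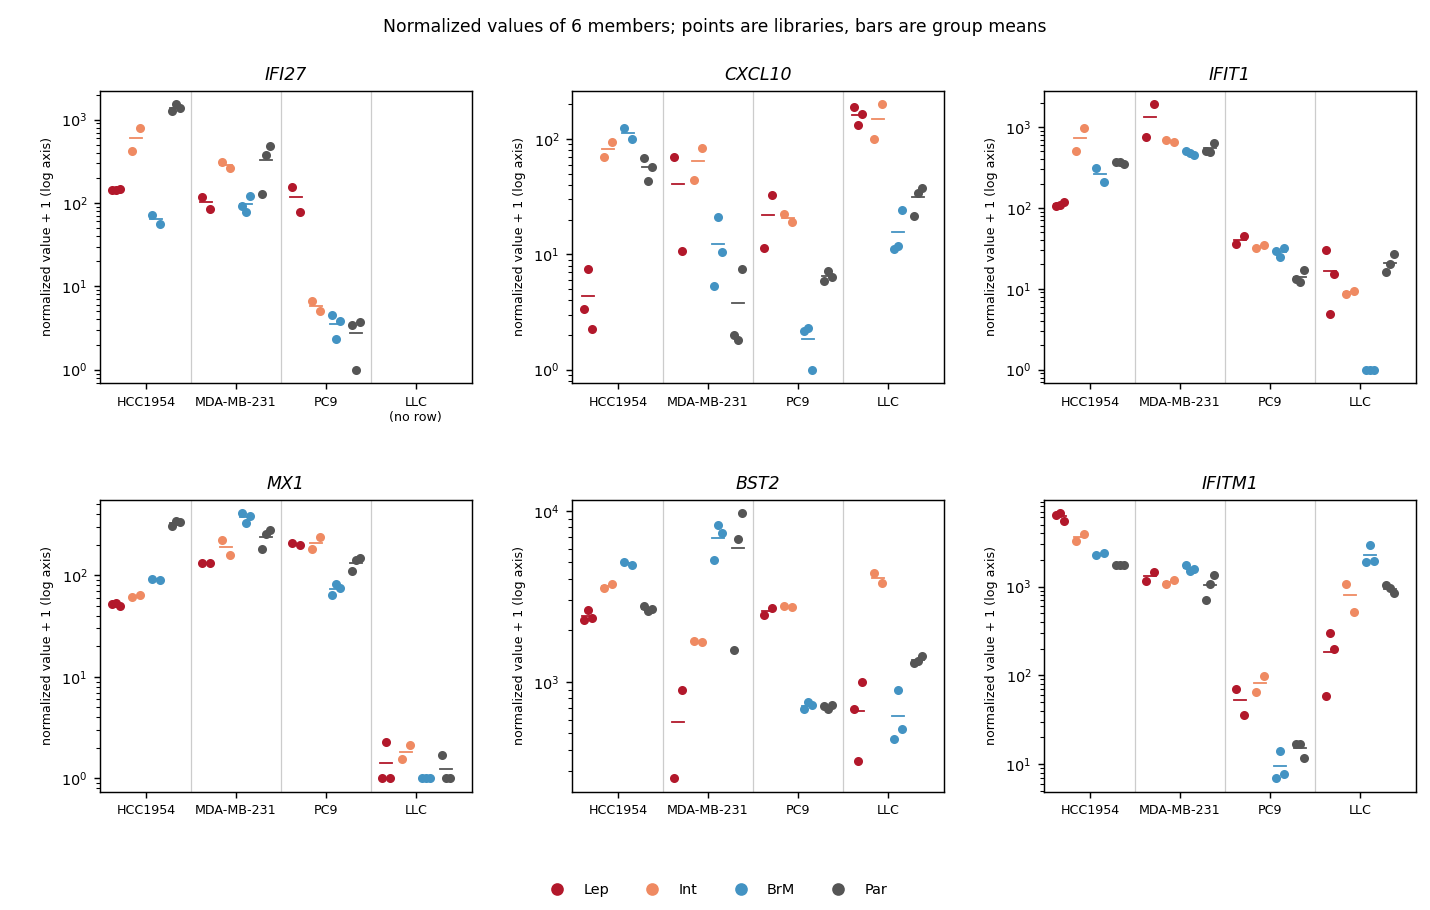
Normalized value plus 1 (log axis) of IFI27, CXCL10, IFIT1, MX1, BST2 and IFITM1 in every library, with bars at group means and stages Lep, Int, BrM and Par from left to right within each model; IFI27 was not matched in LLC. HCC1954 Lep lies lowest for CXCL10, IFIT1 and MX1, and in PC9 IFI27 is high in Lep only, at 156 and 77.7.

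Other effectors also differed by stage. TRIM22 (a nuclear antiviral ligase) had 638, 618 and 609 in Lep, 238 and 369.8 in Int, 392 and 458 in BrM, against 156, 155 and 138 in Par in HCC1954. TRIM22 was higher in Lep (log2 fold change 2.05 ± 0.13, adjusted p = 4.5e-09) and BrM. SAMD9L, a growth-restraining antiviral factor, had 231, 211 and 203 in Lep, 126 and 293 in Int, 456 and 532 in BrM, against 779.9, 749 and 799 in Par. SAMD9L was lower in Lep (log2 fold change -1.85 ± 0.21, adjusted p = 2.1e-06) and Int (log2 fold change -2.01 ± 0.24, adjusted p = 3.9e-06). RSAD2 (viperin) and its neighbour CMPK2, which act in nucleotide metabolism, were higher in HCC1954 Int: RSAD2 had 37.5, 21.6 and 31.3 in Lep, 117 and 228 in Int, 25.9 and 16.7 in BrM, against 36.2, 40.3 and 29 in Par (log2 fold change 2.20 ± 0.31, adjusted p = 2.3e-05) and CMPK2 a log2 fold change of 1.99 ± 0.26. Rsad2 in LLC had 8.95, 2.56 and 18.3 in Lep, 87.1 and 41.6 in Int, 0, 0 and 0 in BrM, against 14.2, 20.6 and 22.6 in Par; all BrM libraries were at 0, at least 3.75-fold below Par. Rsad2 was lower in LLC Lep than in Int (log2 fold change -2.80 ± 0.63, adjusted p = 0.0032). RSAD2 and CMPK2 were under the filter in PC9 and MDA-MB-231, where RSAD2 reached at most 10.5. ISG20, an exonuclease, was called in LLC Int (1.07 ± 0.20 against Par), and SAMD9 was called in none of 15 tests.

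PARP9 and DTX3L form an ADP-ribosylation and ubiquitin ligase pair, and PARP14 is a mono-ADP-ribosyltransferase. None of the 3 was called in HCC1954 or PC9. In LLC, Parp14 had 206, 201 and 357 in Lep, 202 and 196 in Int, 48.2, 30.6 and 52.7 in BrM, against 233, 219 and 187 in Par. Parp14 was lower in BrM (log2 fold change -2.29 ± 0.27, adjusted p = 4.3e-05), and Dtx3l was lower as well (-1.20 ± 0.21). PARP14 in MDA-MB-231 had 2015 and 1727 in Lep, 3071 and 3241 in Int, 1647, 1040.2 and 1086 in BrM, against 2029, 1025 and 836 in Par. PARP14 was higher in Int (log2 fold change 1.39 ± 0.35, adjusted p = 0.042), although Par replicate 1 lay above the other Par libraries, and after the length and GC correction it was 0.80, under the fold threshold. PARP9 was called in none of 20 tests and DTX3L in none of the human models. The 2 genes lie head to head and the library kit does not mark strand, so reads where they overlap cannot be told apart.

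CXCL10, the ligand of the lymphocyte receptor CXCR3, had more calls than any other member, 13 of 20 tests, in both directions. In HCC1954 it had 2.35, 6.49 and 1.25 in Lep, 69 and 93.4 in Int, 124 and 99.1 in BrM, against 68, 42.7 and 56.7 in Par. Lep lay below every other stage, with log2 fold change -3.86 ± 0.36, adjusted p = 2.6e-07 against Par, log2 fold change -4.41 ± 0.40, adjusted p = 4.5e-07 against Int and log2 fold change -4.87 ± 0.40, adjusted p = 1.5e-07 against BrM. In PC9, CXCL10 had 10.3 and 31.8 in Lep, 21.4 and 18 in Int, 1.18, 1.31 and 0 in BrM, against 4.91, 6.11 and 5.4 in Par. CXCL10 was higher in Lep (log2 fold change 1.57 ± 0.53, adjusted p = 0.02) and Int (log2 fold change 1.68 ± 0.53, adjusted p = 0.015), with neither called after the length and GC correction (1.22 in Lep). The 3 PC9 BrM libraries held 2 reads of CXCL10 in all. In MDA-MB-231 it had 69 and 9.71 in Lep, 42.9 and 83.3 in Int, 4.29, 20.0 and 9.45 in BrM, against 1.01, 0.822 and 6.47 in Par; Int was higher (log2 fold change 4.34 ± 0.94, adjusted p = 0.028), and the 2 Lep libraries stood apart from each other. In LLC, Cxcl10 had 188, 130.4 and 164 in Lep, 99.2 and 199 in Int, 10.1, 10.9 and 23 in BrM, against 20.6, 33.2 and 36.9 in Par. Cxcl10 was higher in Lep (log2 fold change 2.40 ± 0.37, adjusted p = 3e-04) and Int (log2 fold change 2.22 ± 0.42, adjusted p = 0.0027) than in Par. Lep lay far above BrM (log2 fold change 3.44 ± 0.37, adjusted p = 3.3e-05), and BrM was called lower than Par (log2 fold change -1.04 ± 0.37, adjusted p = 0.032) although 1 BrM library lay above the lowest Par library. CXCL11, which shares the receptor, had 18.8, 11.9 and 8.75 in Lep, 37.4 and 64.5 in Int, 51.8 and 44.9 in BrM, against 26.3, 26.1 and 31.6 in Par in HCC1954. CXCL11 was lower in Lep (log2 fold change -1.09 ± 0.28, adjusted p = 0.0024), and -0.98 after the length and GC correction, just under the fold threshold. In MDA-MB-231 CXCL11 had 111 and 16.4 in Lep, 86.2 and 149.7 in Int, 4.29, 29.3 and 22.1 in BrM, against 9.07, 17.3 and 32.3 in Par, where both Int libraries were above all Par libraries with no call (log2 fold change 2.65 ± 0.94, adjusted p = 0.085).

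The remaining members include IFI27 and IFI6, small hydrophobic proteins of mitochondria and the endoplasmic reticulum. IFI27 had 141, 141 and 145 in Lep, 414 and 792 in Int, 71.2 and 54.3 in BrM, against 1261, 1526 and 1382 in Par in HCC1954. Par lay above all derivative libraries, and the fall was called in Lep (log2 fold change -3.28 ± 0.18, adjusted p = 1.1e-09), Int (log2 fold change -1.27 ± 0.20, adjusted p = 6.6e-05) and BrM (log2 fold change -4.46 ± 0.20, adjusted p = 2.3e-10). In PC9 IFI27 had 156 and 77.7 in Lep, 5.66 and 4.1 in Int, 3.53, 1.31 and 2.89 in BrM, against 2.45, 0 and 2.7 in Par. It was high in the 2 Lep libraries and at a few reads in the others, with log2 fold change 5.57 ± 0.60, adjusted p = 4.4e-06 against Par and log2 fold change 4.26 ± 0.66, adjusted p = 0.0067 against Int. In MDA-MB-231 IFI27 had 118 and 84.4 in Lep, 313 and 263 in Int, 92.2, 77 and 119.7 in BrM, against 127, 378 and 484 in Par, with no call and with Par replicate 1 near the Lep libraries. IFI6 had 309.5 and 174 in Lep, 109 and 140.1 in Int, 93, 86.7 and 104 in BrM, against 68.7, 76.9 and 70.2 in Par in PC9. IFI6 was higher in Lep (log2 fold change 1.68 ± 0.21, adjusted p = 1.8e-05). In HCC1954 IFI6 had 579, 542 and 510.0 in Lep, 572 and 801 in Int, 909 and 846 in BrM, against 826, 1012 and 872 in Par, and Lep lay below Par by less than the threshold (-0.73 ± 0.11). In MDA-MB-231 IFI6 had 633 and 731 in Lep, 345 and 404 in Int, 508, 727 and 699.6 in BrM, against 299, 739.8 and 846 in Par, and the groups overlapped.

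XAF1, an antagonist of the caspase inhibitor XIAP, had 127 and 103 in Lep, 61 and 65.6 in Int, 2.35, 3.94 and 1.93 in BrM, against 14.7, 24.4 and 17.6 in Par in PC9. Lep (log2 fold change 2.56 ± 0.31, adjusted p = 1.1e-05) and Int (log2 fold change 1.72 ± 0.31, adjusted p = 0.00032) were above Par and BrM below it (log2 fold change -2.42 ± 0.28, adjusted p = 1.9e-05). XAF1 was lower in HCC1954 BrM, at 42.7 and 36.5 in BrM, against 196, 174 and 183 in Par. For XAF1, BrM against Par gave log2 fold change -2.19 ± 0.16, adjusted p = 2.2e-08. Xaf1 was also lower in LLC BrM, at 1.27, 4.37 and 3.29 in BrM, against 46.2, 29.2 and 33.3 in Par. For Xaf1, BrM against Par gave log2 fold change -3.29 ± 0.43, adjusted p = 8.2e-05. LGALS9, which encodes galectin-9, had 987, 1048 and 1061 in Lep, 813 and 738 in Int, 1194 and 1106 in BrM, against 239, 223 and 207 in Par in HCC1954. All 3 derivatives were called higher than Par, with log2 fold change 2.21 ± 0.07, adjusted p = 2.3e-12 in Lep and log2 fold change 2.36 ± 0.07, adjusted p = 6.1e-12 in BrM. In PC9 LGALS9 had 146 and 182 in Lep, 153 and 124 in Int, 24.7, 28.9 and 11.6 in BrM, against 45.4, 51.3 and 43.2 in Par. LGALS9 was higher in Lep (log2 fold change 1.79 ± 0.30, adjusted p = 0.00019) and Int and lower in BrM (log2 fold change -1.16 ± 0.27, adjusted p = 0.0038). Human LGALS9 has near-identical copies, so the split of its reads is uncertain. IFI44L had 49.3, 33.5 and 31.3 in Lep, 97.4 and 154 in Int, 167 and 109 in BrM, against 137, 129 and 134 in Par in HCC1954. IFI44L was lower in Lep (log2 fold change -1.81 ± 0.21, adjusted p = 3.1e-06), and it was higher in MDA-MB-231 Int, at 67.8 and 68.4 in Int, against 19.1, 18.1 and 21 in Par. For IFI44L, Int against Par gave log2 fold change 1.76 ± 0.42, adjusted p = 0.037, and 1.34 with limma's adjusted p = 0.087 after the length and GC correction, which ended the call. EPSTI1 had 0, 0 and 0 in Lep, 0 and 1.05 in Int, 1.29 and 1.04 in BrM, against 17.6, 16.6 and 15.8 in Par in HCC1954. The Lep libraries held no read of it, which puts Lep at least 4.75-fold below Par. In LLC, Epsti1 had 62.6, 138 and 87.9 in Lep, 52.6 and 42.8 in Int, 64.7, 72 and 105 in BrM, against 37, 29.2 and 26.2 in Par. Epsti1 was higher in Lep (log2 fold change 1.55 ± 0.32, adjusted p = 0.0018) and BrM (log2 fold change 1.34 ± 0.32, adjusted p = 0.0036).

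**Figure D4:**
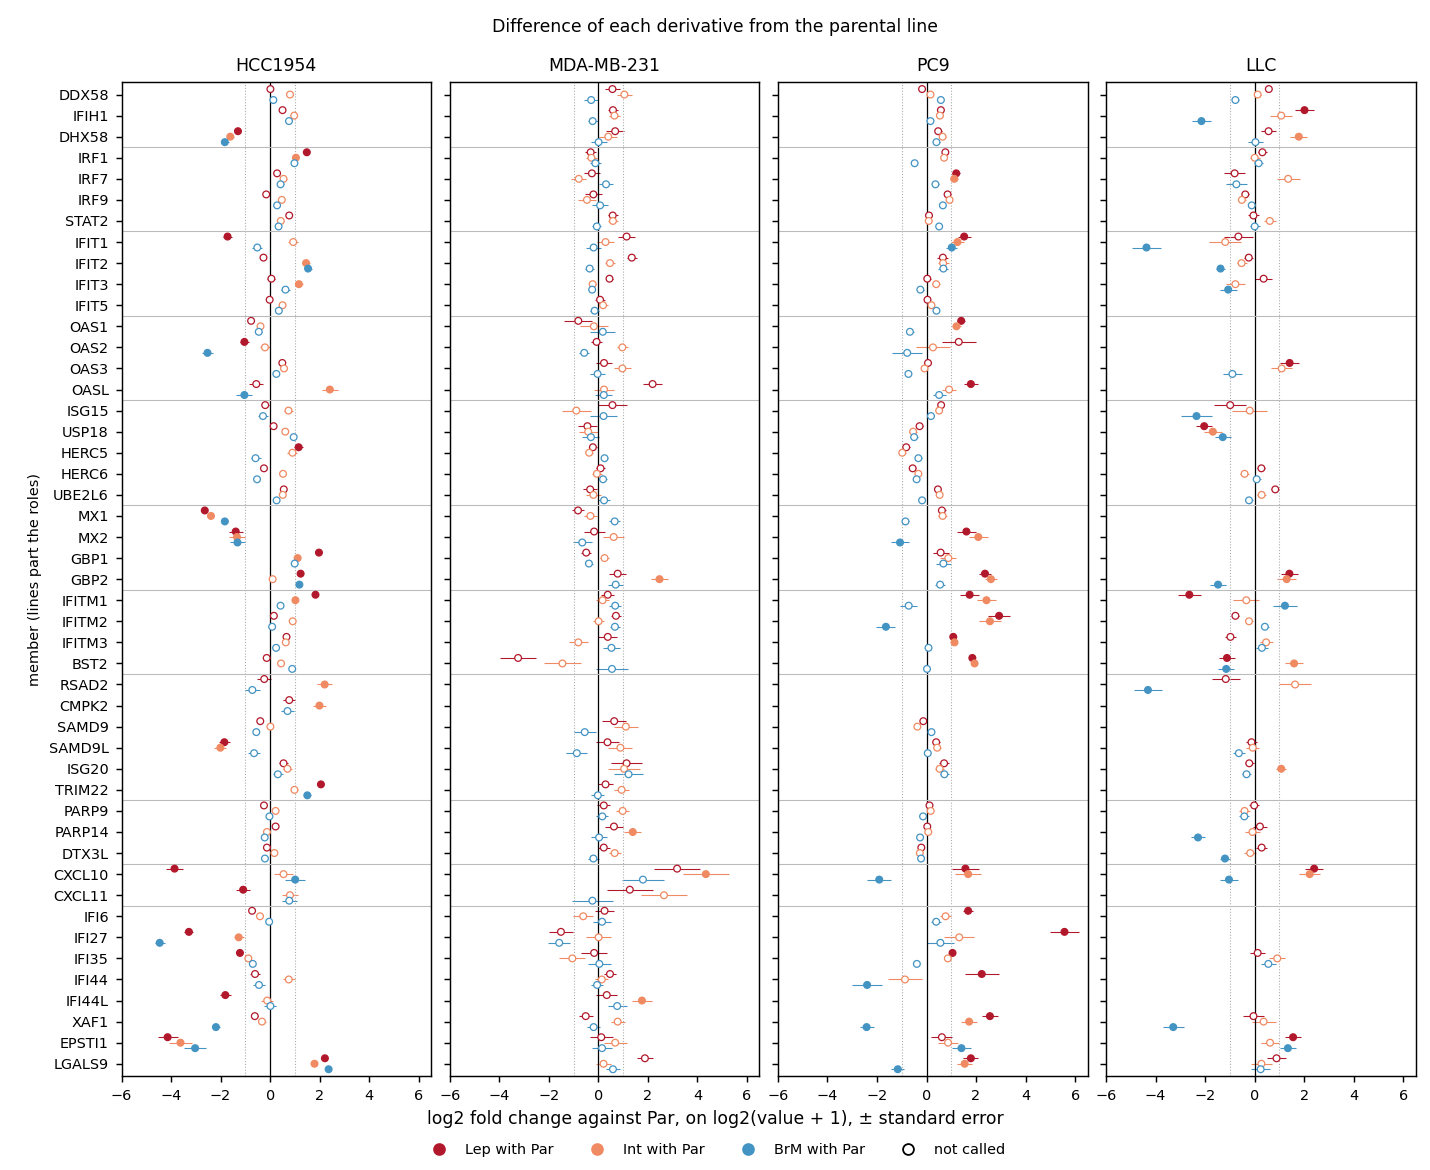
Log2 fold change on log2(value + 1), with standard error bars, of Lep, Int and BrM against Par for every member tested, by model; filled points were called and open ones were not. The fitted values of EPSTI1 in HCC1954 Lep and of Ifit1 and Rsad2 in LLC BrM rest on groups at 0 and depend on the added 1. CXCL10 and IFI27 lie left of 0 in HCC1954 Lep, at -3.86 and -3.28, and right of 0 in PC9 Lep, at 1.57 and 5.57.

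Counted over the models, 16 of the 47 members were called only higher in Lep than in Par, 7 only lower, 8 higher in 1 model and lower in another, and 16 in none. Of the 19520 symbols tested in at least 1 model, 14.5% were called only higher in Lep, 18.7% only lower, 4.28% in both directions and 62.5% in none. For Int against Par the member counts were 21, 5, 2 and 19, against 11.8%, 16.9%, 3.82% and 67.5% of all symbols. For BrM against Par they were 2, 17, 6 and 22, against 12.7%, 18%, 3.23% and 66.1%. Over all comparisons 41 members had at least 1 call and 6 (HERC6, IFIT5, IRF9, PARP9, SAMD9 and STAT2) had none, in 188 calls over 825 tests, where 59.4% of all symbols had at least 1 call and 13.1% of all tests were calls. The 825 tests fell on 47 members, and 293180 tests on the 19520 symbols. Shares per symbol also depend on how many models tested a symbol, which was not matched between members and all symbols. Split by promoter, 4 of 23 members with an ISRE core were called higher and 6 lower in HCC1954 Lep, and 1 higher and 3 lower of 14 members whose window had none, where 13% of all genes were called higher and 13.8% lower. In PC9 Lep, 9 of 22 members with an ISRE core were called higher, and 3 of 11 without, against 6.65% of all genes. Members with no promoter window are left out of this split, among them GBP2, IFITM2, OASL, MX2 and IRF7, all called higher in PC9 Lep. These counts are a description, and the split by motif was not tested.

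In PC9 the libraries also differed by gene length in the same pattern as by stage. Across genes, Spearman's rho between a gene's transcript length and its deviation from the mean of all PC9 libraries was -0.46 and -0.37 in Lep and -0.47 and -0.43 in Int, with 0.40, 0.37 and 0.27 in BrM and 0.33, 0.35 and 0.35 in Par. With length and GC content removed per library, 13 of the 17 members called in PC9 Lep were still called, and CXCL10, IFI35, IFITM3 and IRF7 were not. In PC9 Int, CXCL10, IFITM3 and IRF7 lost theirs. For Lep against BrM, IFI35 and IFI6 lost their calls. IFI27 (5.40), XAF1 (2.68), GBP2 (2.49), IFITM2 (2.34) and BST2 (1.26) kept theirs in Lep against Par. In MDA-MB-231 the same rho was 0.22 and 0.01 in Lep, 0.45 and 0.43 in Int, -0.09, -0.47 and -0.45 in BrM and 0.47, -0.35 and -0.45 in Par, so that Par replicate 1 stood apart from the other Par libraries. The Int libraries thus lay apart from Par replicates 2 and 3 in this trend, and of the 4 members called in Int, PARP14 and IFI44L lost their calls with it. After the correction MDA-MB-231 Lep had 3 members called higher and 1 lower than Par. In HCC1954 the rho lay between -0.06 and 0.08. For LLC no such trend was computed.

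**Figure D5:**
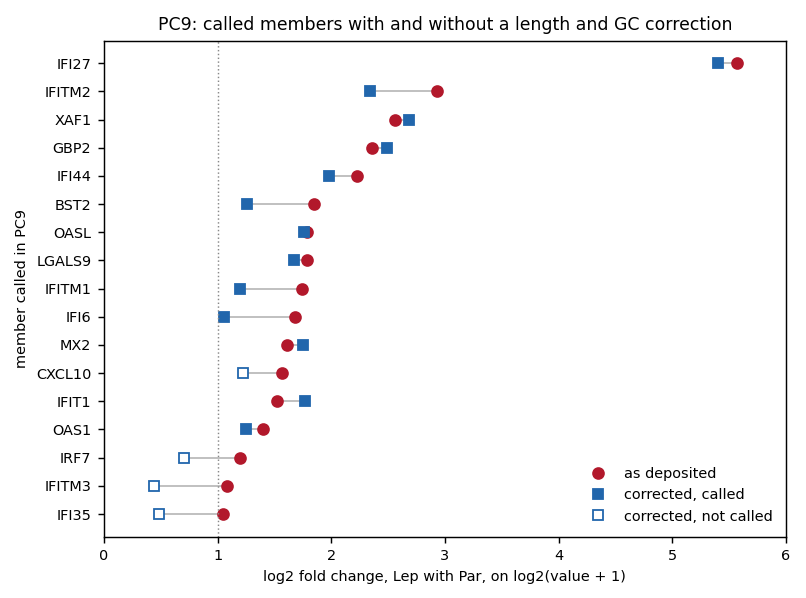
Log2 fold change of Lep with Par in PC9 for the 17 members called, as deposited (red circles) and after removing each library's dependence on transcript length and GC content (blue squares, open where no longer called); the dotted line marks the threshold of 1. IFI27, IFITM2, XAF1 and GBP2 stay above 2 with the correction, and IFITM3 and IFI35 fall under 0.5.

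The rest of the interferon pathway was read from a list of 43 genes: 10 ligands, 6 receptors, 5 kinases and STATs, 15 genes of nucleic acid sensing and 7 feedback genes. Values were at hand for the ligands IFNA1, IFNA2, IFNB1, IFNE, IFNK, IFNG and, in the human models, IFNW1. No type III interferon was among them, so type III ligand RNA was not read. Apart from IFNE, ligand RNA was at or near 0, with the highest values for IFNA1 in PC9, which was under the filter. IFNA1 had 5.87 and 9.19 in Lep, 4.4 and 0.819 in Int, 0, 1.31 and 0 in BrM, against 0, 1.22 and 0 in Par. IFNE, an epithelial type I interferon, was the only ligand tested, in HCC1954 and PC9. In PC9 IFNE had 88 and 91.1 in Lep, 42.1 and 52.4 in Int, 18.8, 13.1 and 16.4 in BrM, against 17.2, 20.8 and 13.5 in Par. IFNE was higher in Lep (log2 fold change 2.34 ± 0.25, adjusted p = 4.8e-06) and Int (log2 fold change 1.42 ± 0.25, adjusted p = 0.00031). These IFNE calls, like all others of the pathway genes, are given without the length and GC correction described above. In HCC1954 it had 43.4, 50.8 and 47.5 in Lep, 19 and 28.3 in Int, 29.8 and 18.8 in BrM, against 42.8, 47.4 and 42.2 in Par, with no call. IFNB1 did not exceed 2.56 in any library. Among receptors, IFNGR2, a chain of the interferon gamma receptor, was higher in PC9 Lep, at 945 and 1225 in Lep, 1036 and 1262 in Int, 484, 456 and 462 in BrM, against 439, 470.2 and 411 in Par. For IFNGR2, Lep against Par gave log2 fold change 1.29 ± 0.12, adjusted p = 9.2e-07. It was also higher in HCC1954 Lep, at 5437, 5721 and 5383 in Lep, 3241 and 3527 in Int, 2679.9 and 2909.9 in BrM, against 1822, 1618 and 1779 in Par. In HCC1954, IFNGR2 in Lep against Par gave log2 fold change 1.67 ± 0.05, adjusted p = 2.5e-12. IFNAR2, a chain of the type I receptor, was higher in HCC1954 Lep (1.29 ± 0.04). Of the 5 receptor genes tested in each model, 2 were called higher in HCC1954 Lep and 1 in PC9 Lep, and none in LLC or MDA-MB-231 Lep, against Par. Of all genes, 13% were called higher in HCC1954 Lep, 6.65% in PC9 Lep, 8% in LLC Lep and 0.0199% in MDA-MB-231 Lep.

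SOCS1 and SOCS3, feedback inhibitors of JAK signalling, were both higher in HCC1954 Lep: SOCS1 had 1407, 1350.5 and 1245 in Lep, 94.8 and 142 in Int, 277 and 266 in BrM, against 72.4, 69.9 and 56.7 in Par. For SOCS1, Lep against Par gave log2 fold change 4.32 ± 0.14, adjusted p = 4e-12. SOCS3 had 3445, 3504 and 3052 in Lep, 1109 and 1328 in Int, 866 and 914 in BrM, against 833, 859 and 833 in Par. For SOCS3, Lep against Par gave log2 fold change 1.98 ± 0.06, adjusted p = 6.2e-12. They were the 2 of 7 feedback genes called there, against 13% of all genes higher and 13.8% lower. Among sensing genes, MB21D1, which encodes the DNA sensor cGAS, had 144, 149 and 145 in Lep, 99.5 and 175 in Int, 45.3 and 37.6 in BrM, against 415, 434 and 449 in Par in HCC1954. MB21D1 was lower in every derivative, with log2 fold change -1.56 ± 0.16, adjusted p = 9.6e-07 in Lep. Of the 14 sensing genes tested in HCC1954 Lep, TICAM1 was called higher and MB21D1 and TLR3 lower; in PC9 Lep and MDA-MB-231 Lep there was no call among 13 and 14. In MDA-MB-231, AIM2 in Int was the pathway gene called against Par, at 479 and 484 in Int, against 286, 156 and 205 in Par, where 4.33% of all genes were called higher. For AIM2, Int against Par gave log2 fold change 1.20 ± 0.25, adjusted p = 0.027.

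Markers of host cells were read beside these results. Host cells of the human models would be murine. Of the 7 macrophage and microglia markers, AIF1 and CX3CR1 stayed under 10 in every library of the 3 human models, as did PTPRC in HCC1954 and PC9 and ITGAM in MDA-MB-231. The human reads of the same 7 markers summed to 2487 to 2766 in Lep, 1062 to 1327 in Int, 1018 to 1057 in BrM and 2904 to 2978 in Par of HCC1954, most of it CD68, and to 3365 to 4694 in Lep, 3052 to 3206 in Int, 2295 to 2470 in BrM and 3176 to 3320 in Par of PC9. Most of the PC9 sum was CD68 too, and single markers moved with the members there. All marker values and calls are given without the length and GC correction. CD14 had 189 and 206 in Lep, 172 and 176 in Int, 20.0, 27.6 and 27.9 in BrM, against 47.8, 35.4 and 58.1 in Par in PC9. ITGAM had 126 and 160.5 in Lep, 68.6 and 73.7 in Int, 16.5, 10.5 and 9.63 in BrM, against 8.58, 18.3 and 4.05 in Par, and the endothelial marker PECAM1 had 461 and 549 in Lep, 355 and 501 in Int, 2.35, 1.31 and 0.963 in BrM, against 92, 94 and 90.5 in Par. All 3 were called higher in PC9 Lep and Int, where 17 and 12 members were called higher, and CSF1R, at 182 and 127 in Lep, 86.8 and 82.8 in Int, 404, 445 and 437 in BrM, against 101, 90.4 and 99.9 in Par, was called higher in BrM. Of the other endothelial markers in PC9, CDH5 had 370 and 577 in Lep and 520 and 401 in Int, against 170, 214 and 184 in Par. VWF was under the filter there, and KDR and CLDN5 stayed under 10 in every PC9 library. In HCC1954, CD14 was called lower in every derivative, at 84.4, 85.4 and 76.3 in Lep, 13.2 and 14.2 in Int, 18.1 and 36.5 in BrM, against 189, 171 and 163 in Par. In MDA-MB-231 the sums ran over 9761 to 14102 in Lep, 11130 to 12543 in Int, 9226 to 12972 in BrM and 7558 to 11120 in Par. There CSF1R, at 92.5 and 28.4 in Lep, 215 and 266 in Int, 55.8, 57 and 53.6 in BrM, against 56.4, 60.8 and 61.5 in Par, and PECAM1, at 261 and 69.5 in Lep, 387 and 922 in Int, 19.3, 74 and 45.7 in BrM, against 37.3, 29.6 and 30.7 in Par, were called higher in Int, where 4 members were. The other endothelial markers were mixed in MDA-MB-231 Int. CDH5 had 18.8 and 23.3 in Int, against 1.01, 0.822 and 1.62 in Par. KDR had 531 and 631 in Int, against 810, 474 and 440 in Par. VWF had 7.87 and 7.43 in Int, against 6.05, 13.2 and 12.9 in Par, and CLDN5 was under the filter. PTPRC had 24.4 and 6.72 in Lep, 12.7 and 25.3 in Int, 12.9, 1.54 and 3.15 in BrM, against 17.1, 9.86 and 1.62 in Par in MDA-MB-231. The lymphocyte markers CD3E and CD4 had 39 and 0 in Lep for CD3E and 78.7 and 0 in Lep for CD4. Lep replicate 1 thus stood out, and every other MDA-MB-231 library was under 10 for both. The part of these markers in the members' values was not tested. In LLC the 7 macrophage and microglia markers (PTPRC, CD68, CSF1R, AIF1, ITGAM, CX3CR1 and CD14 in mouse case) summed to 585 to 1025 in Lep, 5612 to 6001 in Int, 775 to 1013 in BrM and 637 to 695 in Par. The Int sum came from Cd68, at 238, 208 and 125 in Lep, 5585 and 5159 in Int, 188, 183 and 173 in BrM, against 225, 201 and 239 in Par, while Aif1 stayed under 10 in every library and Ptprc had 5.11, 21.7 and 4.92 in Lep, 3.84 and 2.25 in Int, 2.54, 0 and 1.65 in BrM, against 0.711, 0.664 and 0 in Par. Of the 3 of these markers that passed the filter, Cd68 and Cx3cr1 were called higher in LLC Int, and Cx3cr1, at 12.8, 5.11 and 3.51 in Lep, 19.2 and 67 in Int, 7.61, 13.1 and 13.2 in BrM, against 2.13, 0.664 and 2.38 in Par, also in Lep and BrM. Cd14, the remaining marker of these, did not rise in Int, at 391 and 382 in Int, against 464, 441 and 395 in Par. Of the members called in LLC Int, Bst2, Dhx58 and Isg20 were likewise highest there. Cxcl10 and Gbp2 had Lep means (160.7 and 95.6) above their Int means (149.2 and 85.1), and Usp18 was lower in every derivative. The part of other cells in the members' values was not tested. LLC Lep replicate 2 also stood apart in Csf1r, at 1.28, 48.6 and 0.703 in Lep, 0 and 0.563 in Int, 1.27, 0 and 0 in BrM, against 0, 0.664 and 0 in Par, and its part in the Lep values was not tested.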

How the data were processed

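Poly(A) RNA from 41 cultured samples was sequenced as paired reads after TruSeq RNA v2 preparation, per the labels' protocols. Per the submitters' processing notes, FastQC 0.11.3, HTSeq 0.5.4 and DESeq2 were used with builds hg19/GRCh37 and mm10/GRCm38. No aligner is named in those notes. The deposited tables hold 1 normalized signal per gene and library, which the authors named normalized counts and which the values show to be read counts over 1 size factor per library. Dividing the deposited values by the smallest step of their library gave whole numbers throughout (tolerance 0.01). Whole reads were recovered in this way, and size factors recomputed from those reads deviated by at most 0.31%. Because the values are not raw counts, limma 3.58.1 (R 4.3.3) with a trended prior on log2(value + 1) was the main test. All libraries of a model entered 1 fit, a gene had to reach 10 in 2 or more libraries, and p-values were adjusted by Benjamini-Hochberg over all genes of the comparison. edgeR 4.0.16 and DESeq2 1.42.0 on recovered reads were alternatives and gave counts near limma's except where stated. Fits were tested on simulated counts with the same spread between replicates in every model. That setting does not cover the wider spread seen in MDA-MB-231 and LLC, so it cannot speak to those fits. Python 3.11.15 and pandas 2.3.3 were used for the rest.

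The members and all gene lists were chosen with earlier results of these data known. Named members were a core of 16 plus, per comparison, called members with the largest change and non-overlapping groups; others singled out were chosen after their values were seen. Same-numbered libraries deviated together between MDA-MB-231 Par and BrM in every replicate (correlations 0.50, 0.26 and 0.23 across genes). MDA-MB-231 Par and Lep did so in replicate 1 (0.37) but not in replicate 2 (-0.02). In the other pairs of stages the correlations lay between -0.11 and 0.14. No label states a pairing, and whether the numbers pair the libraries, or the trend with gene length links them, was not tested. With the replicate block 0 members were called between MDA-MB-231 Par and BrM, as without it. Alternatives were another tool, quantile normalization, a pseudocount of 10, no filter, only the 2 groups compared, a replicate block, leaving out 1 library and, in the human models, removal of length and GC trends with GENCODE annotation (88.2 to 88.6% of tested genes). Floors of 3 reads cover counting error only, and reads are not independent molecules.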

Additional observations from a re-analysis of the deposited data

Results flagged for a closer look

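Members called in opposite directions under the same comparison in different models, with no overlap between the libraries of the groups compared, are listed here. Whether the models differ was not tested, because their tables were normalized separately. For Lep against Par the log2 fold changes were -1.72 in HCC1954 and 1.52 in PC9 for IFIT1, and -1.39 in HCC1954 and 1.61 in PC9 for MX2. IFI27 had -3.28 in HCC1954 and 5.57 in PC9, and IFI35 had -1.22 in HCC1954 and 1.05 in PC9. IFITM1 had 1.83 in HCC1954, 1.74 in PC9 and -2.64 in LLC. BST2 had 1.85 in PC9 and -1.12 in LLC. CXCL10 had -3.86 in HCC1954, 1.57 in PC9 and 2.40 in LLC. EPSTI1 was lower in HCC1954 Lep, with no read there and a mean normalized value of 16.7 in Par, and it was higher in LLC Lep at 1.55.

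For Int against Par, DHX58 had -1.61 in HCC1954 and 1.78 in LLC, and MX2 had -1.34 in HCC1954 and 2.09 in PC9. For BrM against Par, IFIT1 had 1.02 in PC9 and was lower in LLC, with no read in BrM and a mean of 20.1 in Par. IFIT2 had 1.53 in HCC1954 and -1.38 in LLC, GBP2 1.18 in HCC1954 and -1.48 in LLC, and LGALS9 2.36 in HCC1954 and -1.16 in PC9. CXCL10 had 1.01 in HCC1954 and was lower in PC9, with 2 reads in BrM and a mean of 5.47 in Par. EPSTI1 was lower in HCC1954, with 3 reads or fewer in BrM and a mean of 16.7 in Par, and had 1.41 in PC9 and 1.34 in LLC.

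For Lep against Int, IFIT3 had -1.11 in HCC1954 and 1.14 in LLC, IFI27 -2.00 in HCC1954 and 4.26 in PC9, and IFI44 -1.36 in HCC1954 and 3.10 in PC9. For Lep against BrM, IFIT1 had -1.20 in HCC1954 and was higher in LLC, with a mean of 15.8 in Lep and no read in BrM. IFIT2 had -1.80 in HCC1954, 1.71 in MDA-MB-231 and 1.14 in LLC. MX1 had -1.48 in MDA-MB-231 and 1.47 in PC9. IFITM1 had 1.41 in HCC1954, 2.46 in PC9 and -3.86 in LLC, and IFITM2 had 4.57 in PC9 and -1.19 in LLC. BST2 had -1.02 in HCC1954 and 1.83 in PC9. CXCL10 had -4.87 in HCC1954 and 3.44 in LLC, and it was higher in PC9, with a mean of 21.0 in Lep and 2 reads in BrM.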

How the results depend on the processing

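Of the 188 member calls, none changed sign under any alternative run, and the calls lost numbered 8 with DESeq2, 6 with edgeR, 8 without the filter, 6 with only the 2 groups compared, 23 with a pseudocount of 10, 17 with quantile normalization, 9 with the replicate block, 12 of 135 with the length and GC correction and 97 of 1004 with 1 library left out. Counts of called members moved by more than 1.5 times as follows. DESeq2 gave 7, 1, 4 and 6 in MDA-MB-231 for Lep with Par, BrM with Par, Lep with Int and Lep with BrM, against 0, 0, 0 and 2, and 1 against 2 for PC9 Lep with Int. Without the filter, 2 against 4 were called for MDA-MB-231 Int with Par, 1 against 2 for MDA-MB-231 Lep with BrM and 1 against 2 for PC9 Lep with Int. With only the 2 groups compared, the counts were 2 against 4 for MDA-MB-231 Int with Par, 0 against 2 for PC9 Lep with Int and 11 against 6 for LLC Int with Par. The length and GC correction gave 4 against 0 for MDA-MB-231 Lep with Par and 5 against 2 for Lep with BrM; it was not run for LLC, for which no mouse reference was used here. A pseudocount of 10 gave 1 against 8 for PC9 BrM with Par, and quantile normalization 9 against 15 for LLC BrM with Par. The cause was not tested. The replicate block gave 1 against 2 for PC9 Lep with Int and moved no other count by over 1.5 times. Whether replicate numbers pair the libraries is not given in the labels.

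With 1 library left out (a group of 2 then holds 1 library, assumed to vary like the other groups), the counts for Lep with Par, Int with Par, BrM with Par, Lep with Int and Lep with BrM ran over 17 to 19, 12 to 22, 11 to 14, 11 to 15 and 10 to 12 in HCC1954, 0 to 3, 0 to 16, 0 to 1, 0 to 5 and 0 to 2 in MDA-MB-231, 17 to 18, 10 to 14, 6 to 9, 0 to 3 and 17 to 18 in PC9, and 8 to 9, 3 to 5, 12 to 13, 4 to 10 and 15 to 17 in LLC. The count for MDA-MB-231 Lep with Par was 3 without Par replicate 1 and 1 without Lep replicate 1, and that for BrM with Par 1 without Par replicate 1. Quantile normalization moved the percent of all calls that were higher to 54.4 from 31.1 in HCC1954 Int with Par, with a median shift of all genes of 0.12, to 54.8 from 40.8 in BrM with Par and to 58.0 from 77.1 in Lep with Int, and in LLC to 50.5 from 35.0 in BrM with Par and to 48.5 from 37.6 in Lep with Int. Few reads in at least some groups limit IFI27, IFI44, CXCL10, XAF1, IFITM2, MX2 and OAS2 in PC9, among others. They also limit CXCL10 and EPSTI1 in HCC1954, CXCL10 in MDA-MB-231, and Ifit1, Rsad2, Ifih1, Xaf1 and Isg15 in LLC. Fold changes that involve such groups depend on the value added before the logarithm.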
